A study of Mus musculus with 8 samples.

Results

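Autophagy genes were described here in differentiated 3T3-L1 adipocytes with and without silencing of ERK3. Members were taken by symbol: every gene named Atg followed by a digit, the kinases Ulk1 to Ulk4, Map1lc3a, Map1lc3b, Wipi1 and Wipi2, the genes whose names begin with Gabarap, and the further genes named below. The rule matched 46 of the 18088 genes in the deposited counts and used no measured value. Atg9b had no row in the counts and is not analysed here. The 3T3-L1 line is a mouse fibroblast line that forms adipocyte-like cells in culture, and its genotype was labelled wildtype. RNA sequencing compared 4 libraries from adipocytes given siRNA against ERK3 (siERK3) with 4 libraries from adipocytes given a nontargeting siRNA (siNTC). ERK3 is an atypical MAP kinase, and the study used this comparison to look for how it drives lipolysis. All 8 libraries came from mature adipocytes that had been detached, transfected in suspension at 1.25 nM siRNA per square centimeter and collected after 48 h, and the siRNA were pools. The sources used here do not say whether the replicates were separate cultures, so the p-values describe variation among these libraries alone, which may be technical.

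Autophagy delivers cytoplasm and organelles to the lysosome inside a double membrane. A kinase complex around ULK1 starts the process, a class III phosphatidylinositol 3-kinase marks the site, lipid transfer proteins enlarge the membrane, and a ubiquitin-like conjugation system attaches the Atg8 proteins to it, where they bind cargo receptors and the machinery of fusion. In adipocytes autophagy is known for clearing mitochondria and for its part in the formation and breakdown of lipid droplets, and mTORC1, AMPK and the MiT/TFE transcription factors control it.

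Most autophagy genes changed little, and the larger changes were a lower level of Atg101 and higher levels of Sqstm1 and Gabarapl1. Levels are given in CPM, read counts scaled to the library size after TMM, and changes as the log2 fold change of siERK3 over siNTC from edgeR's quasi-likelihood test, where a gene is called at a Benjamini-Hochberg adjusted p under 0.05 over all 17972 genes tested. All 46 members were tested, and the lowest count of any member in any library was 75. The members called higher in siERK3 were 15 of 46, or 32.6%, where 24.9% of all genes tested were called higher. Those called lower were 3 of 46, or 6.52%, against 23.8% of all genes. In either direction 18 members were called, or 39.1%, against 48.7% of all genes. The CPM of the groups did not overlap in 13 members, or 28.3%, against 43.2% of all genes. Such groups of 4 give the smallest two-sided p that an exact permutation test over these libraries can reach, 0.0286. Only Atg101, Sqstm1 and Gabarapl1 changed by 0.5 or more on the log2 scale, 6.52% of the members and 22.5% of all genes. Without its sign, the log2 fold change had a median of 0.13 over the members and 0.25 over all genes tested. With its sign the median was 0.05 over the members and 0.00 over all genes.

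The number of calls in each direction moved with the scaling. With upper-quartile factors 11 members were called higher and 6 lower, and the median over the members became -0.02. With library sizes alone 21 were called higher and 1 lower. Over all genes the calls were 4470 higher and 4275 lower with TMM, 3556 and 5394 with upper-quartile factors, and 5849 and 3139 with library sizes alone.

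**Figure D1:**
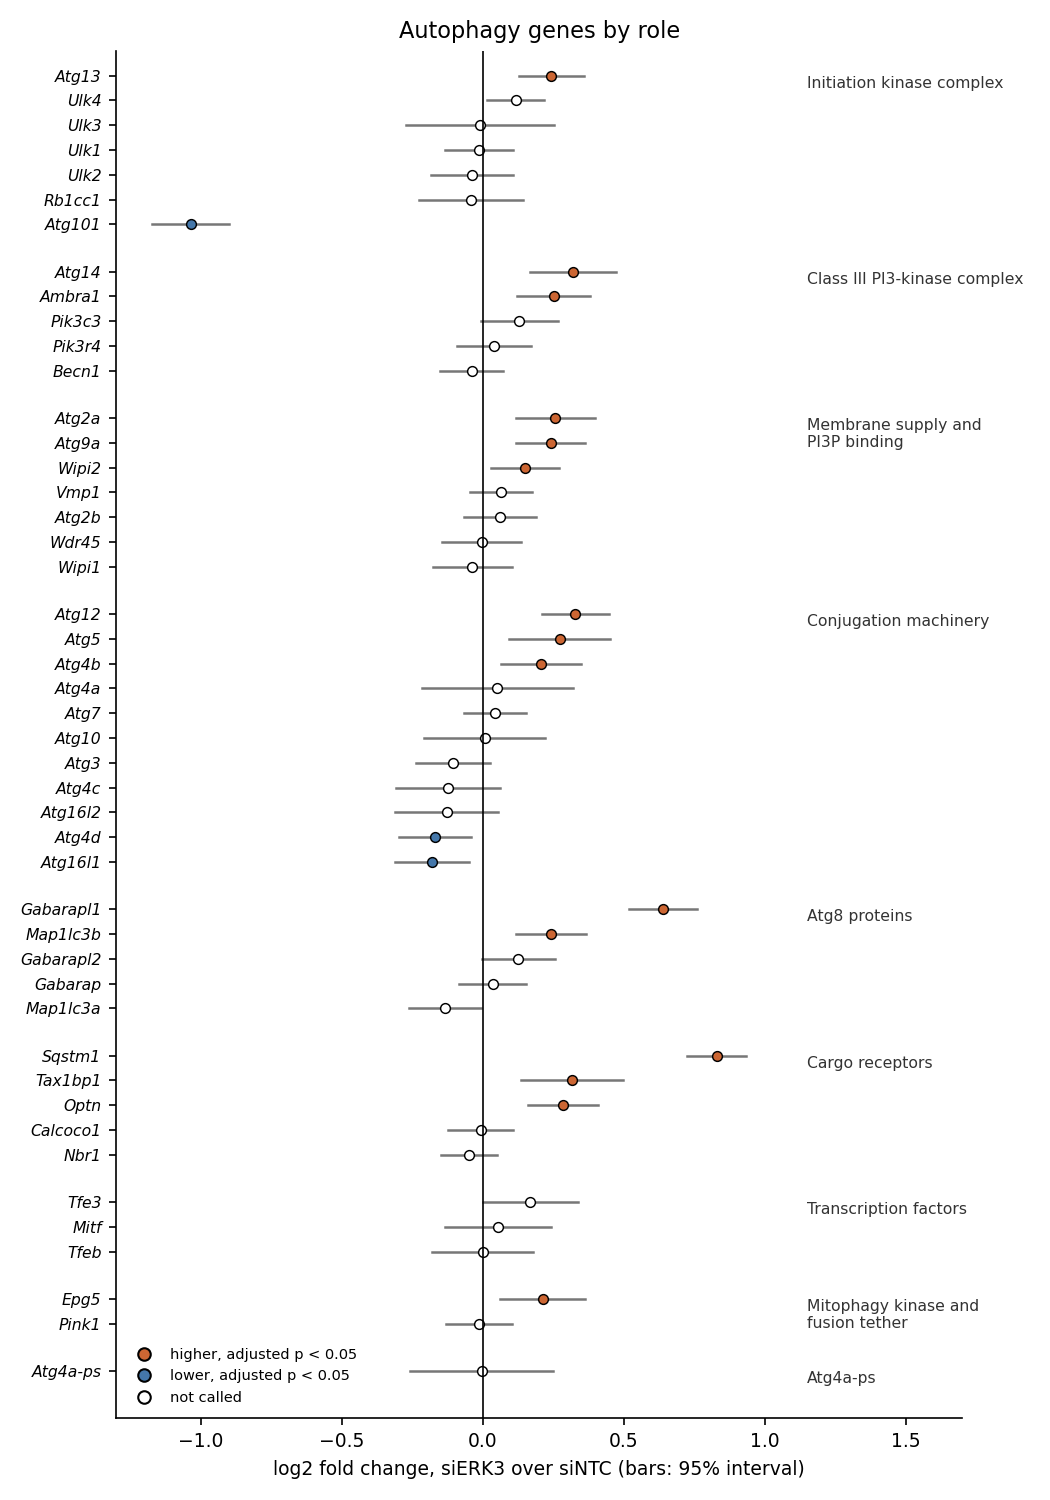
Log2 fold change of siERK3 over siNTC for the 46 autophagy genes, grouped by role, with bars for the 95% interval of edgeR's fit. Filled points mark the 15 genes called higher and the 3 called lower, and Atg101 at -1.04, Gabarapl1 at 0.64 and Sqstm1 at 0.83 lie apart from the rest.

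The upstream sequences of the genes with the largest changes are shown here so that the letters can be read beside the values that follow. They come from RefSeq's promoters of build GRCm38.p6, written in the direction of transcription and ending at the last base before the start of the gene in GENCODE M21. Sqstm1 (ENSMUSG00000015837) spans chr11:50199366-50210827 on the minus strand of mm10, and its stretch lies at chr11:50210828-50211070. Gabarapl1 (ENSMUSG00000030161) spans chr6:129533160-129542346 on the plus strand, with its stretch at chr6:129532942-129533159. Atg101 (ENSMUSG00000037204) spans chr15:101284272-101290945 on the plus strand, with its stretch at chr15:101284051-101284271. Capitals mark TAAACA, the core of forkhead sites, which was searched on both strands. This motif was added after the promoters had been seen, and 13.4% of all promoters hold it. Of these stretches Gabarapl1's holds a match, whose first base is at -94 from RefSeq's start. The other motifs searched, described below, had no match in these stretches.
Sqstm1: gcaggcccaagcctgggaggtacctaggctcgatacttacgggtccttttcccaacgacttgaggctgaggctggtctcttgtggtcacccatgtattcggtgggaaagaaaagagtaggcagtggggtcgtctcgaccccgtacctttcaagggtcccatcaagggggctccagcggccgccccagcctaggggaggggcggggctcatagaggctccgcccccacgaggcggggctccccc
Gabarapl1: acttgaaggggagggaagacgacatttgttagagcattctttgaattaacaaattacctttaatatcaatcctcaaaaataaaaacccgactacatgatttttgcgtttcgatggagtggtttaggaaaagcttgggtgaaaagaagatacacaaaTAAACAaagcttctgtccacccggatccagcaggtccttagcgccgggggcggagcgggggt
Atg101: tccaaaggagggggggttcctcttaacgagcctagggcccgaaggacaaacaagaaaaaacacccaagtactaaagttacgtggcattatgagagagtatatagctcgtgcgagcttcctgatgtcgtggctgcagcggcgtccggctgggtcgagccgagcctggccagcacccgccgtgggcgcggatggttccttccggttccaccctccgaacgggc

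The libraries differed little in depth, while other gene groups differed with the knockdown. Total counts were 9854522 to 9920350 in siNTC and 9887357 to 9943572 in siERK3. Mapk6, which encodes ERK3, fell from 579 ± 18.1 to 69.6 ± 4.80 CPM (SD over 4 libraries each), which is -3.06 on the log2 scale (edgeR, adjusted p = 2.09e-22). All 9 adipocyte markers examined were measured, with a summed level of 18380 to 20680 CPM in siNTC and 11110 to 11470 CPM in siERK3, and all 9 were called lower. Of 7 preadipocyte markers 6 were measured, 3 higher and 3 lower, and their sum was 92.2 to 99.7 CPM in siNTC and 343 to 375 CPM in siERK3, where Ly6a alone had 307 CPM against 3.47 CPM in siNTC. Of the leukocyte markers Adgre1, Ptprc, Itgam, Lyz2 and Cd3e had no row, and Cd68, Csf1r and Cd14 summed to 9.89 to 14.5 CPM in siNTC and 20.4 to 25.0 CPM in siERK3, with 2 of 3 called higher. Of 6 endothelial markers Pecam1 alone had a row, at 0.517 to 1.26 and 1.17 to 1.58 CPM, and was not called. All 20 interferon-stimulated genes examined were called higher, with a sum of 160.1 to 175 CPM in siNTC and 6043 to 6233 CPM in siERK3. The adipocyte, preadipocyte, leukocyte and interferon genes moved with the same contrast as the members, and their part in the members' changes was not tested. With siERK3 and siNTC as the only groups, loss of ERK3 and other effects of the siRNA cannot be told apart. In bulk RNA, fewer cells of a type and less RNA per cell cannot be told apart.

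In the initiation complex, Atg101 fell and Atg13 rose, and the kinases showed no call. Atg101 encodes a protein that binds ATG13 and keeps it stable. Its CPM were 90.6, 86.4, 94.5 and 98.7 in the siNTC libraries and 49.5, 42.7, 48.0 and 40.2 in the siERK3 libraries. Each siERK3 library was well below every siNTC library. The mean fell from 92.5 ± 5.27 CPM (SD, n = 4) to 45.1 ± 4.38 CPM (SD, n = 4), a log2 fold change of -1.04 with an SE of 0.07 (edgeR, adjusted p = 5.64e-12), and 2.05% of all genes tested had a lower log2 fold change. Its exons overlap no other annotated gene. Atg13 encodes the regulatory subunit that joins the kinase to the rest of the complex. Its levels of 94.4, 89.7, 92.3 and 86.7 CPM in siNTC and of 102, 116, 109 and 103 CPM in siERK3 did not overlap. The increase was 0.24 with an SE of 0.06 on the log2 scale (edgeR, adjusted p = 0.000956). Ulk4, a relative of ULK1 that lacks kinase activity, was the member of this group with the most CPM. It had 165, 158, 162 and 162 CPM in siNTC and 176, 175, 171 and 179.5 CPM in siERK3. These groups did not overlap either, but the log2 fold change of 0.12 missed the threshold (edgeR, adjusted p = 0.0512) and was called in 4 of 16 alternatives. Of the exon bases of Ulk4, 8.9% lie opposite those of Ctnnb1, which had 230.1 CPM in siNTC and 251 CPM in siERK3 (log2 fold change 0.13). The kinases Ulk1 and Ulk2, which drive the complex, were at -0.01 (95% interval -0.14 to 0.11) and -0.04 (-0.18 to 0.11) on the log2 scale. Ulk3, a related kinase, and Rb1cc1, which encodes the scaffold FIP200, were at -0.01 (-0.27 to 0.25) and -0.04 (-0.23 to 0.14).

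The ratio of Atg101 to Atg13, both taken per kilobase of exon, was 2.63, 2.63, 2.80 and 3.11 in the siNTC libraries and 1.33, 1.01, 1.21 and 1.07 in the siERK3 libraries. Atg101 thus had the higher level per length in all 8 libraries, and the ranges of the ratio did not overlap. This ratio combines the calls above and was given no test of its own.

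In the phosphatidylinositol 3-kinase complex, Atg14 and Ambra1 rose while the catalytic core showed no call. Atg14 encodes the subunit that directs the complex to the site of autophagosome formation. Its CPM were 21.3, 20.6, 19.7 and 20.6 in siNTC and 25.4, 25.8, 27.1 and 24.2 in siERK3. The groups were apart, and the log2 fold change was 0.32 with an SE of 0.07 (edgeR, adjusted p = 0.000964). Gm49004, which lies opposite 5.5% of the exon bases of Atg14, was also higher, by 0.54, and reads of the pair cannot be told apart without strand. Ambra1 encodes a scaffold that joins Beclin to its regulators. It had 47.6, 43.5, 51.1 and 46.4 CPM in siNTC and 58.6, 59.2, 53.7 and 53.0 CPM in siERK3. All siERK3 libraries were above the highest siNTC library, with a log2 fold change of 0.25 and an SE of 0.06 (edgeR, adjusted p = 0.00189). Becn1, the gene of Beclin, had the most CPM of this group. Its levels were 70.8, 73.2, 74.6 and 72.0 CPM in siNTC and 72.6, 72.3, 71.8 and 66.0 CPM in siERK3. The groups overlapped, the log2 fold change was -0.04 with a 95% interval from -0.15 to 0.07 (edgeR, adjusted p = 0.567), and 43.9% of its exon bases lie opposite those of Cntd1, at 65.6 and 63.4 CPM. Pik3c3, the gene of the lipid kinase VPS34, and Pik3r4, which encodes its regulatory partner VPS15, were at 0.13 (-0.01 to 0.27) and 0.04 (-0.09 to 0.17).

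Among the genes for membrane supply, Atg2a, Atg9a and Wipi2 rose and none was called lower. Atg2a encodes a protein that carries lipids into the growing membrane. Its CPM were 78.4, 82.4, 89.8 and 70.2 in siNTC and 93.2, 88.1, 104 and 98.6 in siERK3, so that the third siNTC library was above the lowest siERK3 library. The log2 fold change was 0.26 with an SE of 0.07 (edgeR, adjusted p = 0.00302). Its paralog Atg2b was at 0.06 (-0.07 to 0.19). Atg9a encodes a lipid scramblase that arrives on vesicles. It was at 53.1, 52.4, 53.4 and 46.4 CPM in siNTC and at 58.4, 63.1, 59.0 and 62.1 CPM in siERK3. Those groups were apart, and the log2 fold change was 0.24 with an SE of 0.06 (edgeR, adjusted p = 0.00186). On the same strand Gm29253 covers 31.8% of the exon bases of Atg9a, and it was higher as well, by 0.17, so reads of this pair cannot be assigned with certainty. Vmp1, which encodes a scramblase of the endoplasmic reticulum, had the most CPM of all members in siNTC. It had 409.5, 412, 460.0 and 452 CPM in siNTC and 459, 438, 465 and 450.0 CPM in siERK3. The siNTC libraries spanned most of the siERK3 range, and the log2 fold change of 0.06 was not called (edgeR, adjusted p = 0.328). Wipi2, which binds phosphatidylinositol 3-phosphate and recruits ATG16L1, rose by 0.15, the smallest size among the called members (edgeR, adjusted p = 0.0383), from 80.3 ± 6.29 to 89.0 ± 2.48 CPM (SD, n = 4 each) with overlap. Its call was lost in 8 of 16 alternatives, 6 of which left out siNTC replicate 1, 2 or 4 or siERK3 replicate 1, 2 or 3 (adjusted p of 0.0508 to 0.134), the others being upper-quartile factors (0.275) and DESeq2 (0.0611). The related Wipi1 and Wdr45 were at -0.04 (-0.18 to 0.10) and -0.00 (-0.14 to 0.14), and 24.7% of the exon bases of Wdr45 are shared with Gm45208.

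The conjugation machinery moved in both directions, with Atg12, Atg5 and Atg4b higher and Atg16l1 and Atg4d lower. Atg12 is the ubiquitin-like protein that becomes linked to ATG5. Its CPM were 60.7, 59.5, 55.7 and 54.7 in siNTC and 69.3, 77.0, 70.4 and 73.0 in siERK3. The groups did not overlap, and the log2 fold change was 0.33 with an SE of 0.06 (edgeR, adjusted p = 4.93e-05). Atg5 was at 24.5, 19.6, 19.1 and 20.8 CPM in siNTC and at 24.8, 28.3, 23.9 and 24.4 CPM in siERK3. The first siNTC library lay within the siERK3 range, and the log2 fold change was 0.27 with an SE of 0.09 (edgeR, adjusted p = 0.0120). The adjusted p of Atg5 was 0.0601 without siERK3 replicate 2 and 0.0554 with upper-quartile factors. Atg16l1 encodes the third protein of the ligase that these genes form. It had 53.7, 49.7, 54.3 and 47.6 CPM in siNTC and 48.4, 43.4, 46.9 and 42.2 CPM in siERK3. The groups overlapped slightly, and the log2 fold change was -0.18 with an SE of 0.06 (edgeR, adjusted p = 0.0217). Its call was lost without siNTC replicate 1 or 3 or siERK3 replicate 2 or 4 (adjusted p of 0.0563 to 0.0794) and with library sizes alone (0.249). Members of this ligase thus passed the test in opposite directions.

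Atg4d encodes one of the proteases that prepare Atg8 proteins and remove them from membranes. Its levels were 37.2, 40.4, 37.3 and 38.7 CPM in siNTC and 34.8, 34.0, 34.9 and 32.8 CPM in siERK3. The groups were apart by a small gap, with a log2 fold change of -0.17 and an SE of 0.06 (edgeR, adjusted p = 0.0278). The call was lost without siNTC replicate 2 or 4 or siERK3 replicate 2 or 4 (adjusted p of 0.0549 to 0.082), with DESeq2 (0.0711) and with library sizes alone (0.298). Kri1 lies opposite 19.3% of the exon bases of Atg4d and went from 27.5 to 25.9 CPM. Atg4b, the main protease of this family, rose from 31.2 ± 1.83 to 35.9 ± 1.94 CPM (SD, n = 4 each) with no overlap, by 0.21 on the log2 scale (edgeR, adjusted p = 0.0157), and lost its call with upper-quartile factors (0.105) and without siNTC replicate 2 (0.0623) or siERK3 replicate 3 (0.057). The other proteases Atg4a and Atg4c were at 0.05 (-0.22 to 0.32) and -0.13 (-0.31 to 0.06). Atg7, the E1 enzyme of both conjugations, had the most CPM of this group. It had 82.7, 82.7, 91.0 and 82.8 CPM in siNTC and 88.1, 86.9, 87.1 and 87.5 CPM in siERK3. The third siNTC library was above all others, and the log2 fold change was 0.04 (edgeR, adjusted p = 0.522). The E2 enzymes Atg3 and Atg10 were at -0.11 (-0.24 to 0.03) and 0.01 (-0.21 to 0.22), and Atg16l2, a paralog of Atg16l1, was at -0.13 (-0.31 to 0.05). Atg4a-ps, which the symbol rule also took in, was at -0.00 (-0.26 to 0.25). Atg4a-ps shares 78.0% of its 31-base words with Atg4a and 22.9% with Syt6. Atg4a shares 60.8% of its words with Atg4a-ps and 14.75% with Syt6, so the counts of Atg4a and Atg4a-ps are uncertain.

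Of the 5 Atg8 genes, Gabarapl1 and Map1lc3b rose, and no call was made for the others. Gabarapl1 encodes a protein of the GABARAP subfamily that is attached to phosphatidylethanolamine in the autophagosome membrane. Its CPM were 81.0, 84.0, 96.3 and 91.0 in siNTC and 134, 137, 145 and 132 in siERK3. All siERK3 libraries exceeded the highest siNTC library by more than the spread within either group. The mean went from 88.1 ± 6.91 CPM (SD, n = 4) to 137 ± 5.53 CPM (SD, n = 4), 1.56-fold, with a log2 fold change of 0.64 and an SE of 0.06 (edgeR, adjusted p = 3.66e-09). On the other strand 1700101I11Rik covers 28.3% of the exon bases of Gabarapl1. It had 15.4, 16.6, 16.4 and 16.5 CPM in siNTC and 22.9, 22.4, 27.5 and 28.6 CPM in siERK3, and rose by the same log2 fold change of 0.64. The kit does not mark strand, so reads from the shared bases could have come from either gene.

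Map1lc3b, the gene of LC3B, whose lipid-bound form is the usual marker of autophagosomes, had 87.7, 82.9, 97.8 and 92.7 CPM in siNTC and 98.3, 106, 111 and 112 CPM in siERK3. The lowest siERK3 library was just above the highest siNTC library, and the log2 fold change was 0.24 with an SE of 0.06 (edgeR, adjusted p = 0.00184). Of its 31-base words, 4.19% occur in Gm6055, a similar gene at 37.8 and 41.3 CPM. Gabarap had the most CPM of the family. It was at 179, 182, 199 and 191 CPM in siNTC and at 178, 208, 201 and 183 CPM in siERK3. The groups overlapped throughout, and the log2 fold change was 0.03 (edgeR, adjusted p = 0.646). Gabarapl2 was at 0.13 (-0.00 to 0.26; edgeR, adjusted p = 0.0983). It shares 11.2% of its 31-base words with Gm3724, 6.94% with Gm6051 and 5.2% with Gm5829. Gm3724 and Gm5829 were called higher, by 0.28 and 0.50 (edgeR, adjusted p = 0.00494 and 0.0032), and Gm6051 was not called, at 0.17. Reads of these genes cannot be assigned with certainty. Map1lc3a, the gene of LC3A, had 88.2 ± 3.56 and 80.3 ± 7.04 CPM (SD, n = 4 each), and its log2 fold change of -0.14 was not called (edgeR, adjusted p = 0.0745) but was called lower with upper-quartile factors (0.0084) and without siERK3 replicate 3 (0.0364).

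**Figure D2:**
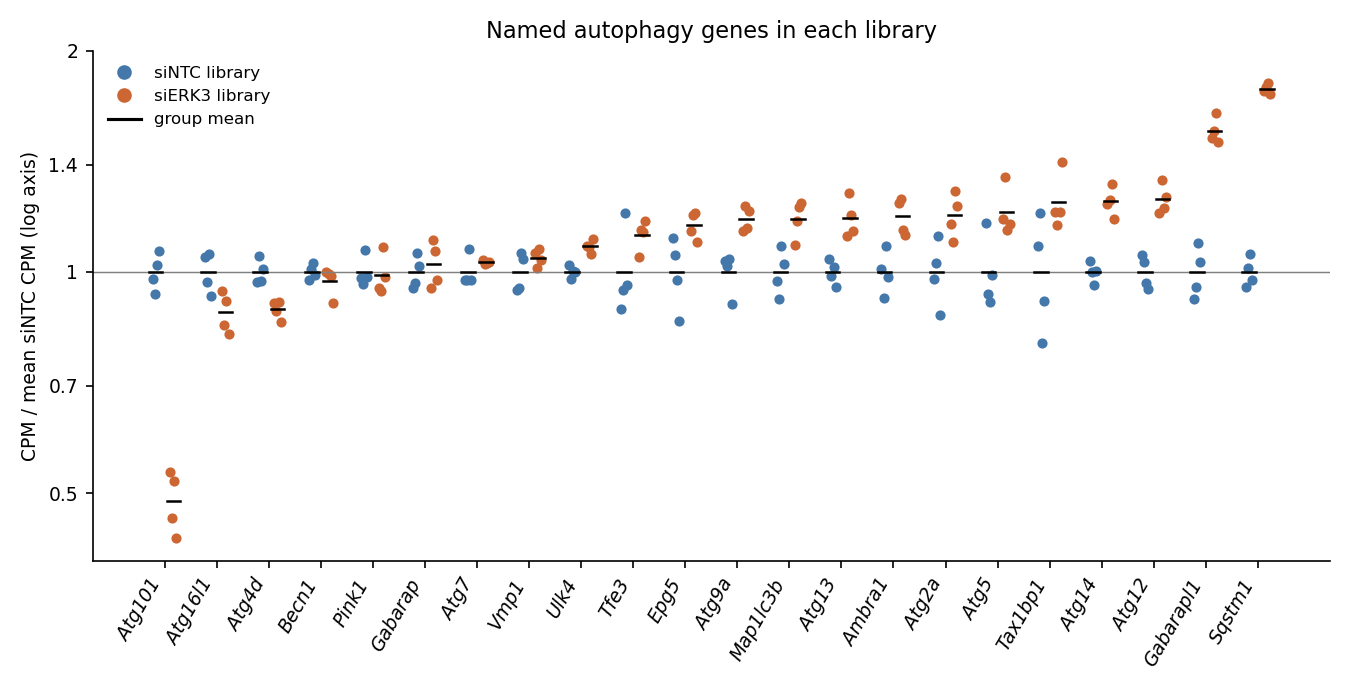
CPM of 22 autophagy genes in each library relative to their siNTC mean, on a log axis. Points are the 4 siNTC and 4 siERK3 libraries and bars are group means, ordered by the change from Atg101, at 45.1 CPM in siERK3 against 92.5 CPM in siNTC, to Sqstm1, at 653 against 368 CPM.

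Of the 5 cargo receptors, Sqstm1, Tax1bp1 and Optn rose, and Nbr1 and Calcoco1 showed no call. Sqstm1 encodes p62, which binds ubiquitinated cargo and Atg8 proteins and is itself degraded by autophagy. Its CPM were 351, 373, 389 and 359 in siNTC and 649, 657, 664 and 643 in siERK3. Every siERK3 library lay far above every siNTC library. The mean rose from 368 ± 16.9 CPM (SD, n = 4) to 653 ± 9.30 CPM (SD, n = 4), 1.78-fold, with a log2 fold change of 0.83 and an SE of 0.05 (edgeR, adjusted p = 2.07e-12). Mrnip lies opposite 17.3% of the exon bases of Sqstm1 and was called lower, from 8.31 to 5.62 CPM. Tax1bp1 encodes a receptor for ubiquitinated cargo that is also known to restrain antiviral and NF-kappaB signaling. Its levels were 181, 201, 134 and 153 CPM in siNTC and 202, 193, 202 and 235 CPM in siERK3. The second siNTC library was within the siERK3 range, and with the widest spread of the group the log2 fold change was 0.32 with an SE of 0.09 (edgeR, adjusted p = 0.00461; 0.067 with DESeq2). Optn, which encodes a receptor of mitophagy and of bacteria, rose from 40.1 ± 1.75 to 48.8 ± 1.87 CPM (SD, n = 4 each) with no overlap, by 0.28 (edgeR, adjusted p = 0.000376). Nbr1, a receptor that works with p62, was at -0.05 (-0.15 to 0.05), and Calcoco1, which serves the turnover of endoplasmic reticulum, was at -0.01 (-0.12 to 0.11).

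None of the 3 transcription factors was called. Tfe3 had the most CPM of these factors, with 26.3, 27.9, 35.5 and 28.3 in siNTC and 30.9, 33.7, 33.4 and 34.6 in siERK3. The third siNTC library was the highest of all 8 while the other siNTC libraries were below every siERK3 library. The log2 fold change was 0.17 (edgeR, adjusted p = 0.0936), and without siNTC replicate 3 it was 0.27 (adjusted p = 0.00349). Tfeb, the factor best known for control of lysosomal genes, was at -0.00 (-0.18 to 0.18) and Mitf, also the regulator of pigment cells, at 0.05 (-0.13 to 0.24). The mRNA level does not report on the localization of these factors, through which mTORC1 controls them.

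Pink1, the kinase that marks damaged mitochondria for mitophagy, had 115, 113, 125 and 115 CPM in siNTC and 111, 110.0, 126 and 115 CPM in siERK3. The groups covered the same range, with a log2 fold change of -0.01 and a 95% interval from -0.13 to 0.10 (edgeR, adjusted p = 0.851). Epg5 encodes a tether that guides autophagosomes to lysosomes. It had 39.9, 37.9, 35.0 and 30.8 CPM in siNTC and 40.9, 42.9, 43.1 and 39.5 CPM in siERK3. One pair of libraries overlapped, and the log2 fold change was 0.21 with an SE of 0.07 (edgeR, adjusted p = 0.0187). The call of Epg5 was lost with upper-quartile factors (0.112) and without siNTC replicate 4 (0.0968), siERK3 replicate 2 (0.0543) or siERK3 replicate 3 (0.0575).

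For 27 of the 28 members that were not called, the 95% interval of the fold lay within 1.25-fold in either direction, and the exception was Tfe3. The SE over all members ranged from 0.0482 to 0.129 on the log2 scale. The smallest change that was called, 0.15 in Wipi2, was about as large as the largest that was not, 0.17 in Tfe3.

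Levels of different genes were compared per kilobase of exon, with all annotated exons of a gene merged, so genes with long and rarely used exons read low. In siNTC the members ranged from 2.06 CPM per kb for Atg16l2 to 112 CPM per kb for Vmp1. Sqstm1 followed Vmp1 with 109.6 CPM per kb, then Gabarap with 102, Map1lc3a with 74.7, Atg101 with 57.9 and Gabarapl1 with 43.8 CPM per kb. In siERK3 Sqstm1 came first with 195 CPM per kb, ahead of Vmp1 with 117 and Gabarap with 104 CPM per kb. Gabarapl1 moved to rank 4 with 68.1 CPM per kb, beside Map1lc3a with 68.0, and Atg101 moved to rank 7 with 28.2 CPM per kb. As a share of all counts, without scaling, the 46 members took 0.334 to 0.349% in siNTC and 0.405 to 0.419% in siERK3. Sqstm1 alone had 3365 to 3727 counts in siNTC and 6498 to 6823 in siERK3. With library sizes alone the median log2 fold change was 0.13 over the members and 0.09 over all genes tested.

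**Figure D3:**
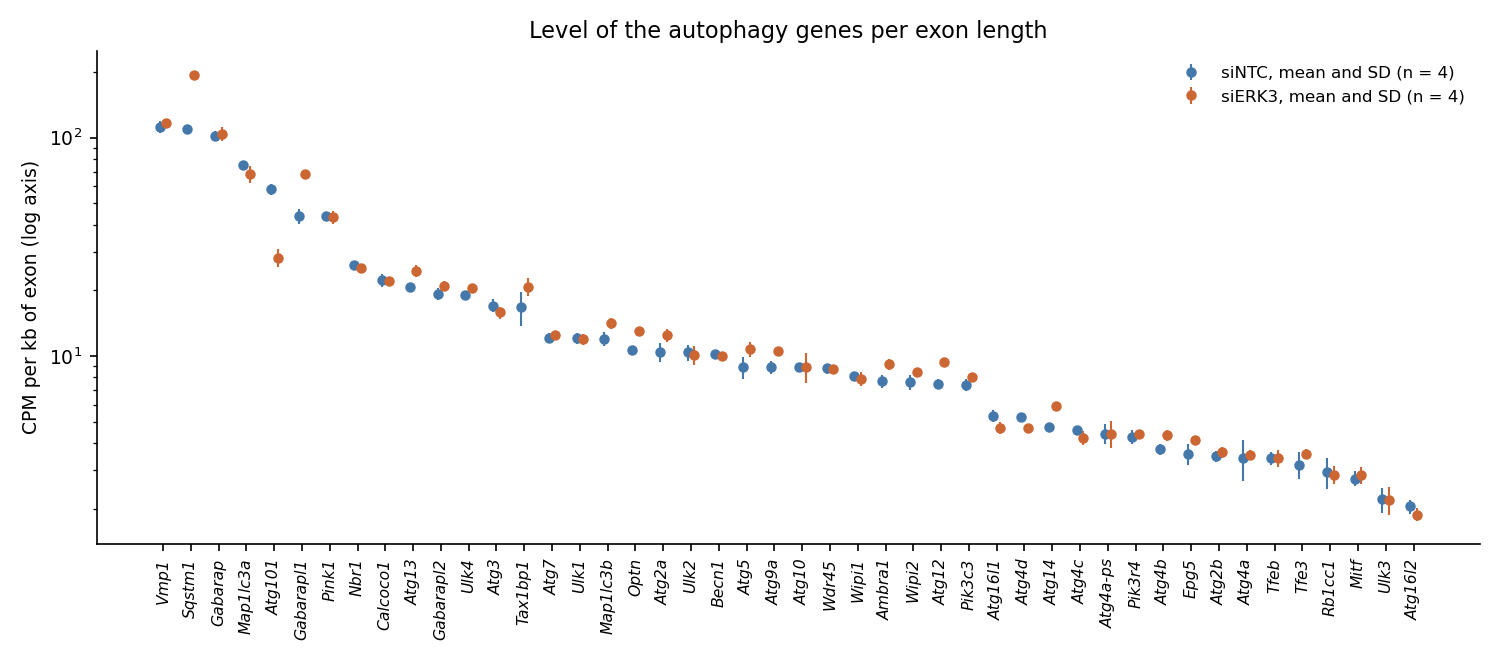
Level of each autophagy gene in CPM per kilobase of exon on a log axis, as mean and SD of the 4 siNTC and the 4 siERK3 libraries, ordered by siNTC. Atg101 at 57.9 and 28.2 CPM per kb, Sqstm1 at 109.6 and 195 CPM per kb and Gabarapl1 at 43.8 and 68.1 CPM per kb are the pairs of points farthest apart.

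The makeup of both families shifted toward the member that rose most. The 5 Atg8 genes summed to 241 to 268 CPM per kb in siNTC and 257 to 291 CPM per kb in siERK3, ranges that overlap. Gabarapl1 took 16.5 to 17.9% of that sum in siNTC and 24.0 to 26.0% in siERK3. Map1lc3a took 28.5 to 31.3% in siNTC and 23.5 to 26.3% in siERK3, and Gabarap 39.6 to 41.1% and 36.6 to 39.7%. Gabarapl2 held 7.37 to 7.80% and 7.47 to 7.79%, and Map1lc3b 4.57 to 4.88% and 4.98 to 5.48%. Map1lc3b has 7517 merged exon bases, which makes its share low on this scale. The 5 cargo receptors summed to 179.8 to 191 CPM per kb in siNTC and 274 to 279 CPM per kb in siERK3. Sqstm1 took 57.7 to 60.8% of that sum in siNTC and 69.7 to 71.0% in siERK3. These shares follow from the changes of the single genes and were given no test.

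**Figure D4:**
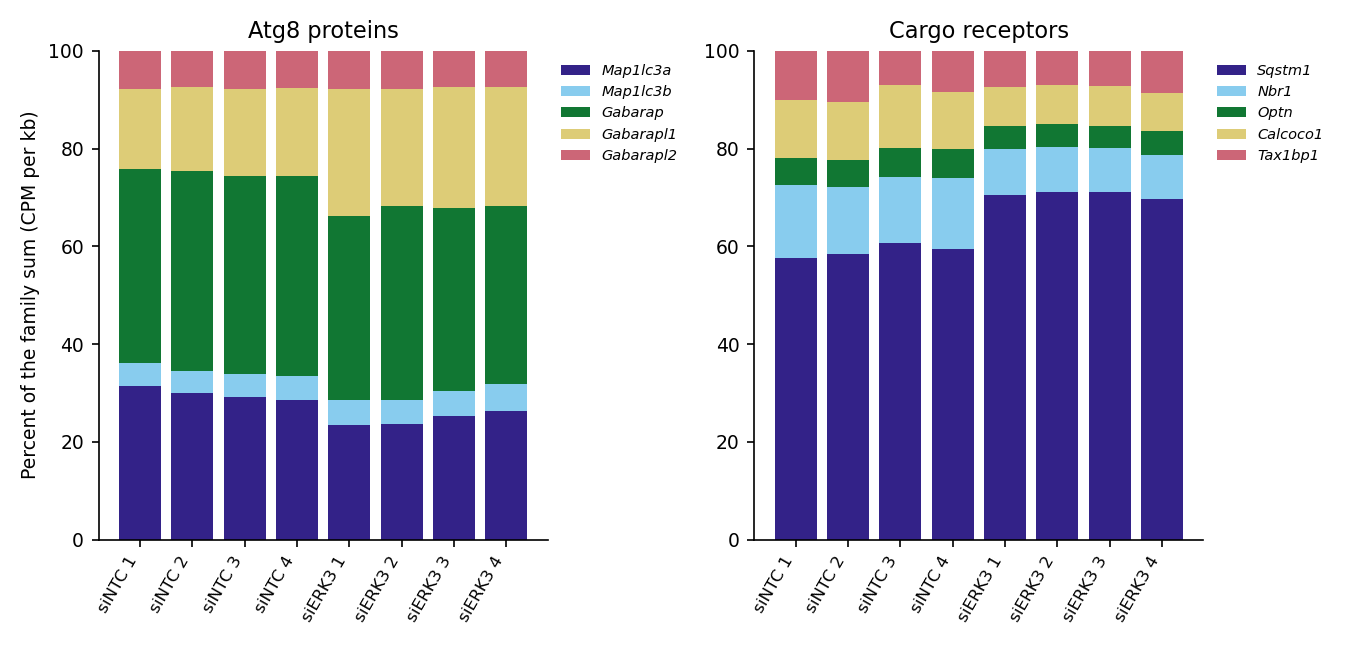
Share of each gene in the summed level (CPM per kilobase of exon) of the Atg8 proteins, left, and of the cargo receptors, right, in each of the 8 libraries. Bars stack to 100%. Gabarapl1 takes 16.5 to 17.9% of the Atg8 sum in siNTC and 24.0 to 26.0% in siERK3, and Sqstm1 57.7 to 60.8% and 69.7 to 71.0% of the receptor sum.

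Genes that act beside the members were read from 5 further lists. Of all genes tested 24.9% were called higher and 23.8% lower, with a median of 0.00. In the list of nutrient sensing inputs to autophagy, 7 of 25 measured genes were called higher and 7 lower, with a median log2 fold change of -0.01. Ddit4, the mTORC1 inhibitor REDD1, fell from 113 ± 9.15 to 29.6 ± 1.52 CPM (SD, n = 4 each), by 1.93 (edgeR, adjusted p = 2.52e-17). Sesn3, a sestrin that restrains mTORC1, fell by 0.59 (edgeR, adjusted p = 1.39e-09). Rictor, the defining subunit of mTORC2, rose by 0.62 (edgeR, adjusted p = 7.49e-09), and Rragc, a Rag GTPase that brings mTORC1 to the lysosome, by 0.48 (edgeR, adjusted p = 1.58e-07). The balance of calls in this list moved with the scaling, with 4 higher and 8 lower with upper-quartile factors and 11 higher and 6 lower with library sizes alone. DESeq2 gave 5 and 7. With 1 library left out, 5 to 8 were higher and 6 to 7 lower, and the median was between -0.03 and 0.03.

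In the list of partners of Beclin and of lipid transfer, 6 of 13 genes were called higher and 2 lower, with a median of 0.14, where 24.9% of all genes were higher and 23.8% lower. The calls were 5 higher and 3 lower with upper-quartile factors, 7 and 1 with library sizes alone and 6 and 1 with DESeq2, and 1 gene was called lower without siNTC replicate 2 or 4 or siERK3 replicate 1 or 2. Trp53inp1, which binds Atg8 proteins and is a target of p53, rose from 74.5 ± 4.57 to 145 ± 8.55 CPM (SD, n = 4 each), by 0.96 (edgeR, adjusted p = 2.52e-12). Bcl2, which binds and holds back Beclin, rose by 0.70 (edgeR, adjusted p = 1.24e-05). Snx18, a sorting nexin of membrane traffic to autophagosomes, fell by 0.61 (edgeR, adjusted p = 5.58e-09), and Nrbf2, a subunit of the complex with Atg14, by 0.18 (edgeR, adjusted p = 0.0278).

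Of 16 measured genes of autophagosome fusion, 9 were called higher and 2 lower, with a median of 0.19, beside the same shares of all genes. Those counts were 7 and 2 with upper-quartile factors and 14 and 1 with library sizes alone. Vps16 and Vps39, subunits of tethering complexes at the lysosome, rose by 0.39 (edgeR, adjusted p = 6.59e-05) and 0.36 (edgeR, adjusted p = 1.48e-05). Tecpr1, a tether that binds ATG12 and ATG5, fell by 0.25 (edgeR, adjusted p = 0.0021), and Ei24, an autophagy protein of the endoplasmic reticulum, by 0.23 (edgeR, adjusted p = 0.00437). Among 17 measured receptors and adaptors of organelles, 3 were called higher and 6 lower, with a median of -0.04, where 24.9% of all genes were higher and 23.8% lower. With upper-quartile factors 2 were higher and 8 lower, and with library sizes alone 6 were higher and 5 lower, with a median of 0.04. With 1 library left out the median was lowest without siERK3 replicate 4 (-0.10) and highest without siNTC replicate 4 (-0.01). Bnip3, a receptor of mitophagy, fell from 622 ± 39.0 to 186 ± 18.2 CPM (SD, n = 4 each), by 1.74 (edgeR, adjusted p = 1.56e-16), and Ncoa4, the receptor for ferritin, by 0.80 (edgeR, adjusted p = 1.84e-10). Tbk1, the kinase that phosphorylates p62 and optineurin and also acts in antiviral signaling, rose by 0.88 (edgeR, adjusted p = 3.11e-09), and Tollip, an adaptor for ubiquitinated cargo, by 0.30 (edgeR, adjusted p = 4.9e-05). Receptors named here therefore passed the test in both directions, Sqstm1 higher and Bnip3 lower.

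The list of lysosomal genes that are known targets of TFEB had 18 of 29 genes called higher and 2 lower, with a median of 0.19, where 24.9% of all genes were higher and 23.8% lower. Gla, the gene of alpha-galactosidase, rose by 1.50 (edgeR, adjusted p = 7.03e-13), and Npc2, a carrier of cholesterol, by 0.89 (edgeR, adjusted p = 2e-12). Ctsf, the gene of cathepsin F, fell by 0.53 (edgeR, adjusted p = 0.000167). Of these 29 genes 14 were called higher and 2 lower with upper-quartile factors, and 24 and 2 with library sizes alone. A single gene was called lower with DESeq2 and without siNTC replicate 2 or 4 or siERK3 replicate 3 or 4.

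**Figure D5:**
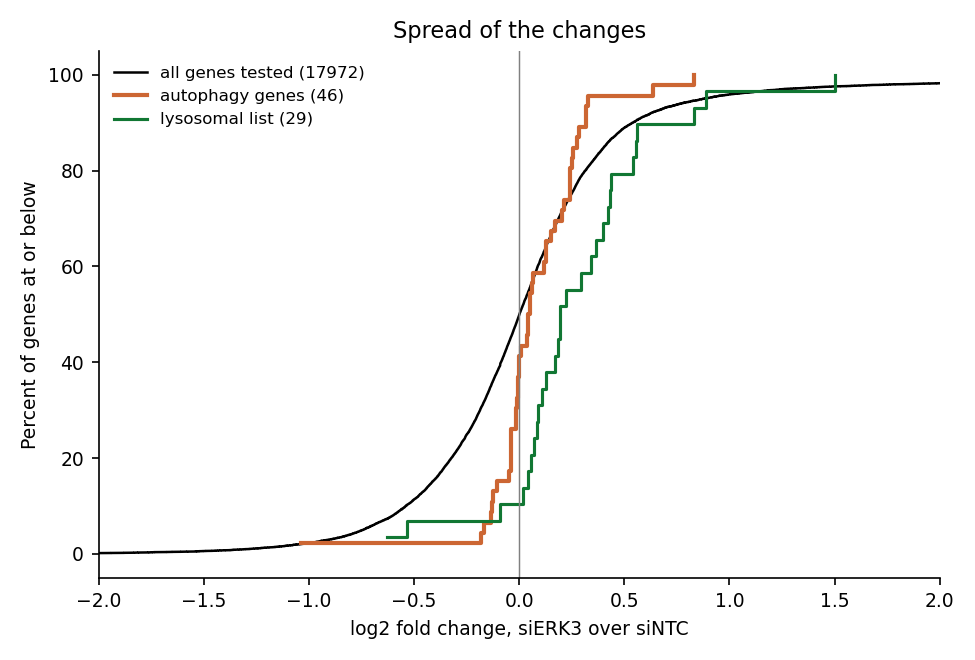
Percent of genes at or below each log2 fold change of siERK3 over siNTC for all 17972 genes tested, the 46 autophagy genes and the 29 lysosomal genes. The autophagy curve is steep around 0, with a median of 0.05, and the lysosomal curve lies to the right of it, with a median of 0.19. The axis is cut at 2 in both directions.

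Promoters of the members were searched for short motifs on both strands, from 250 bases before to 50 bases after RefSeq's start, in 49 promoters of 38 members. Rb1cc1, Atg16l1, Map1lc3a, Atg12, Pik3c3, Becn1, Epg5 and Atg4a-ps had no entry. The E-box CACGTG, the center of the site that TFEB and its relatives bind, was in promoters of Atg3, Atg5, Atg7 and Atg14 and in 7.15% of all 32851 promoters. The longer CLEAR motif, which is this E-box with GT before it and AC after it and so overlaps it, was in no member promoter and in 0.326% of all. The FOXO motif GTAAACA was likewise in none of them and in 3.65% of all. The interferon response motif, a pair of GAAA with 2 free bases between, was in the promoter of Nbr1 and in 3.44% of all. The forkhead core TAAACA, which is part of the FOXO motif, and TATAAA were added after the promoters had been seen. TAAACA was in promoters of Ambra1, Atg4a, Gabarapl1, Mitf, Wdr45 and Wipi2 and in 13.4% of all, and TATAAA in those of Atg4a, Mitf and Sqstm1 and in 13.6% of all. RefSeq's starts can differ from the start of the gene in GENCODE M21. The matches of Atg7, Atg14, Nbr1, Mitf, Wdr45 and Wipi2 lay inside the gene as annotated there, past its first base. A match describes letters in these windows and is not a site of binding.

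Windows of 30 bases around the E-boxes and around the interferon response motif of Nbr1 are given with the motif in capitals, because they are the motifs of the MiT/TFE factors among the members and of the interferon genes named above. They are written in the direction of transcription of build GRCm38.p6, at chr16:45158723-45158752 and chr16:45158746-45158775 for Atg3, chr10:44268313-44268342 for Atg5, chr6:114670952-114670981 for Atg7, chr14:47568418-47568447 on the minus strand for Atg14 and chr11:101552635-101552664 for Nbr1, and all but Atg14 are on the plus strand. The windows of Atg3 overlap each other, and the position before each is that of the motif's first base from the RefSeq start. In GENCODE M21 the genes start at chr6:114643097 for Atg7, chr14:47570649 for Atg14 and chr11:101552149 for Nbr1, so their windows lie inside them.
Atg3 at -94: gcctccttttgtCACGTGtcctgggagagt
Atg3 at -71: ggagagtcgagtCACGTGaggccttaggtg
Atg5 at -14: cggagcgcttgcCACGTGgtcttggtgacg
Atg7 at -132: catattggtggtCACGTGtgcagtaagtga
Atg14 at -1: aaaacaaaatccCACGTGactggccctgag
Nbr1 at -9: atcggcttggGAAAGGGAAAtccaaccagc

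Of the genes whose promoters hold the E-box, Atg5 and Atg14 were called higher by 0.27 and 0.32, while Atg3 and Atg7 were at -0.11 and 0.04. Nbr1, whose promoter holds the interferon response motif, was at -0.05. Among the genes with the forkhead core Gabarapl1, Ambra1 and Wipi2 were called higher and Atg4a, Mitf and Wdr45 were not called. The shares called higher were 24.9% of all genes tested and 32.6% of the members. The counts are per gene and do not separate transcripts from different starts. A link between these motifs and the calls was not tested.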

How the data were processed

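The authors deposited raw counts per gene for 18088 genes, without further normalization, and a table of their own edgeR comparison (log2 fold change, average log2 CPM, p-value and adjusted p-value), which was not used. Of these genes 34 to 43 were at 0 in each siNTC library and 0 to 2 in each siERK3 library. Genes with low counts thus seem to have been left out before deposit, and a gene without a row may be one of them. Shares over all genes refer to the rows present. The submitters' processing notes name bcl2fastq, FastQC, Bowtie2, edgeR and mm10, and the counting program, annotation and strand setting are not given in the sources used here. Libraries were poly(A), with a kit that does not mark strand. Groups came from the sample labels, and all 8 libraries entered 1 fit in R 4.3.3 with edgeR 4.0.16: filterByExpr (minimum count 10, minimum total 15), TMM, glmQLFit and glmQLFTest with no covariate, Benjamini-Hochberg over 17972 genes. The SE is the log2 fold change over the square root of F, and CPM are after TMM. Precision is set by the spread between libraries, and counts are reads without molecular identifiers. Replicates of a group differed by more than sampling noise (12 pairs, chi-square per gene from 1.97 to 8.30). Alternatives were RLE and upper-quartile factors, library sizes alone, no filter, 5 CPM in 4 libraries, DESeq2 1.42.0, limma-voom (limma 3.58.1), the replicate number as a block and leaving out each library. The fits were also run on simulated counts with far fewer changed genes than were called here, which cannot test the scaling of this contrast.

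Exons, overlaps and shared 31-base words came from GENCODE M21, and promoters from RefSeq. Other steps used Python 3.11.15. The rule for genes with values in every library took, per role, the 2 called members with the largest change in each direction and the member with the most CPM, and for the 5 further lists the 2 called genes with the largest change in each direction. Not every gene that this rule named is reported here. The members and lists were chosen with earlier results of these data known. The Western blots, lipolysis assays and mouse data of the study were not analysed here.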

Additional observations from a re-analysis of the deposited data

Results flagged for a closer look

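In 6 of 92 groups of 4 CPM values, the 2 groups of each of the 46 autophagy genes, 1 library lay apart from the other 3 by Dixon's criterion at 95%, which chance alone gives in about 1 of 20 groups, or 4.6 of 92. Becn1 had 66.0 CPM in siERK3 replicate 4 and 71.8 to 72.6 CPM in the other siERK3 libraries. Atg4b had 28.4 CPM in siNTC replicate 2 and 31.9 to 32.2 CPM in the others of its group, and Atg4a had 11.98 CPM in the same library against 8.02 to 8.31 CPM. Rb1cc1 was also apart in siNTC replicate 2, at 54.0 CPM against 39.2 to 40.6 CPM. Atg7 had 91.0 CPM in siNTC replicate 3 and 82.7 to 82.8 CPM in the others. Atg9a had 46.4 CPM in siNTC replicate 4 and 52.4 to 53.4 CPM in the others.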

How the results depend on the processing

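Over 16 alternatives and 46 autophagy genes, 692 of 736 values kept their side of the threshold, 29 lost the call and 15 gained it. Of the 736 values, 0 changed direction with a call. The 692 include uncalled genes whose log2 fold change crossed 0, such as Gabarap, at 0.03 with TMM and -0.035 with upper-quartile factors. The 11 members that kept the call in all 16 were Ambra1, Atg101, Atg12, Atg13, Atg14, Atg2a, Atg9a, Gabarapl1, Map1lc3b, Optn and Sqstm1. The adjusted p lay between 3.87e-42 and 6.71e-10 for Atg101, 3.99e-22 and 9.93e-08 for Gabarapl1, and 2.89e-71 and 1.94e-10 for Sqstm1 over these alternatives. The other 7 called members (Atg16l1, Atg4b, Atg4d, Atg5, Epg5, Tax1bp1 and Wipi2) lost it in at least 1, and 9 uncalled members were called in at least 1. The members called lower, 3 with TMM, were 6 with upper-quartile factors and 1 with library sizes alone, and the median over the members was -0.0227 with upper-quartile factors. With 1 library left out, 12 to 18 members were called higher and 1 to 4 lower, with 1 lower without siERK3 replicate 2 or siERK3 replicate 4, where Atg4d and Atg16l1 lost the call, and over all genes 4117 to 4350 were higher and 3839 to 4131 lower. DESeq2 called 13 members higher and 2 lower, with 3895 and 3730 of all 18088 genes, and limma-voom 16 and 3, with 4466 and 4258 of 17972.

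Replicate numbers did not pair the libraries: the same-number correlations of deviations were -0.0158 to 0.0554, and 2 of 8 libraries correlated best with their own number. With the replicate number as a block, 16 members were called higher and 3 lower, the added call being Ulk4 (adjusted p = 0.0484), and over all genes 4501 were higher and 4292 lower.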

Other observations

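Beside Atg14, genes of proteins of its complex or of the related complex with UVRAG were among the partners of Beclin with a call. Nrbf2, of the complex with Atg14, fell by 0.18 (edgeR, adjusted p = 0.0278), and Becn1, Pik3c3 and Pik3r4 showed no call. Uvrag, which replaces ATG14 in the complex of endosomes, rose from 35.0 ± 2.58 to 52.7 ± 2.20 CPM (SD, n = 4 each), by 0.59 on the log2 scale (edgeR, adjusted p = 5.13e-08). Rubcn, whose protein binds that complex and restrains it, rose from 38.7 ± 2.90 to 54.8 ± 4.34 CPM (SD, n = 4 each), by 0.50 (edgeR, adjusted p = 1.77e-06). In both genes the groups did not overlap. Lamp1, a main protein of the lysosomal membrane, rose from 469 ± 31.1 to 682 ± 41.8 CPM (SD, n = 4 each), by 0.54 (edgeR, adjusted p = 4.6e-08). Stx17, the SNARE of autophagosome fusion, was at 32.6 ± 0.409 and 35.6 ± 0.937 CPM (SD, n = 4 each), with no overlap but no call (log2 fold change 0.13, edgeR, adjusted p = 0.0938). Uvrag, Rubcn, Lamp1 and Stx17 were chosen after their values were seen.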
